A study of Homo sapiens with 24 samples.

Results

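SUM149PT cells, an established human inflammatory breast cancer line, were profiled after stable expression of a short hairpin RNA (shRNA) against MCT1 or of a scrambled shRNA. These were 6 of the 24 arrays of the series, 3 titled MCT1 shRNA and 3 titled scramble, taken by their labels. Both groups were infected with lentivirus and selected with puromycin at 2 µg/ml for 5 days before RNA was extracted, so both carry a virus, a hairpin and the selection. The 18 other arrays held HS578T, SUM149PT and SUM159PT cells given DMSO or the MCT1 inhibitor AZD3965 for 24 hours, 3 arrays each, and those of SUM149PT serve here as the comparison. SUM149PT was grown in F12 medium with serum, insulin, hydrocortisone and EGF in both experiments. The labels give neither the number of hairpins used against MCT1 nor whether the arrays of a group came from separate infections. The p-values therefore cover array-to-array spread within groups, which could be purely technical. That spread was estimated jointly from the 8 groups of all 24 arrays, not from the 6 shRNA arrays alone. The cells of a group are a selected population in bulk, in which fewer cells of a kind and less RNA per cell cannot be told apart.

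MCT1 is a transporter of the plasma membrane that moves lactate, pyruvate and ketone bodies together with a proton, in the direction set by their gradients. Cells that ferment glucose export lactate through it and through the related MCT4. When amino acids run short or proteins misfold in the endoplasmic reticulum, cells phosphorylate the initiation factor eIF2, which slows translation in general and favours that of the transcription factor ATF4. ATF4 switches on amino acid transporters, synthetic enzymes and tRNA synthetases, while the sensors IRE1 and ATF6 switch on chaperones of the endoplasmic reticulum.

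The probe sets of the shRNA target were lower on every MCT1 shRNA array than on any scramble array. These 5 probe sets carry no gene name in the annotation used and were taken by their identifiers. The one with the strongest fall gave 2411, 2167 and 2083 units on scramble arrays 1 to 3 and 573, 555 and 569 on MCT1 shRNA arrays 1 to 3, which is 25.5% of the scramble mean and a change of -1.94 ± 0.09 on the log2 scale (estimate and SE; adjusted p = 3.38e-12 in limma). The brightest gave 3780.0, 4354 and 4435 units on scramble arrays 1 to 3 and 1592, 1517 and 1563 on MCT1 shRNA arrays 1 to 3, or 37.2% of scramble and -1.42 ± 0.07 on the log2 scale. A further pair stood at 27.5% and 30.1% of scramble. The dimmest gave 428, 332 and 182 units on scramble arrays 1 to 3 and 146, 152 and 115 on MCT1 shRNA arrays 1 to 3, and its group means stood at 43.9%, a difference of -1.03 ± 0.28 (adjusted p = 0.0187 in limma). Without scramble array 3 its change was -1.36 (limma adjusted p = 0.00226), and those of the other 4 lay between -1.98 and -1.37. The labels and the target probe sets thus point the same way on all 6 arrays.

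**Figure D1:**
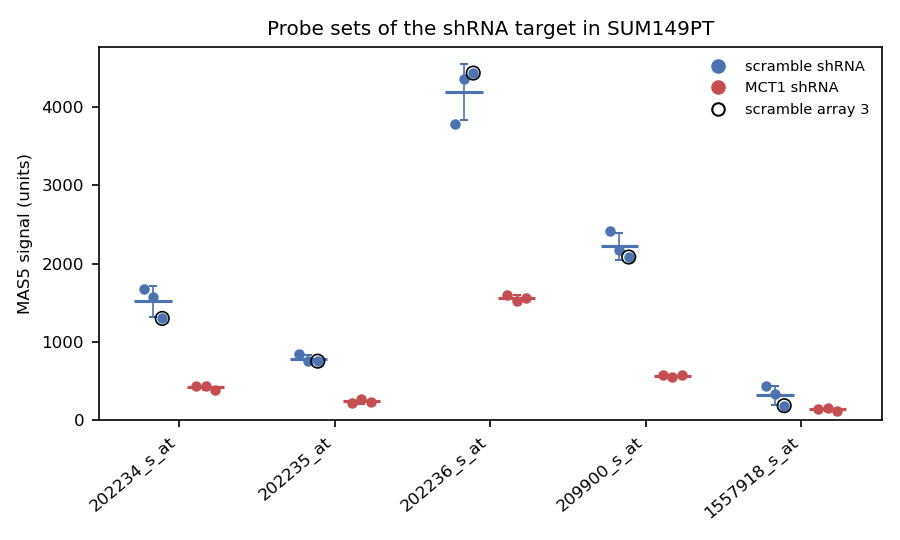
MAS5 signal (linear units, axis from 0) of the 5 probe sets of the shRNA target on each scramble (blue) and MCT1 shRNA (red) array, with the group mean and SD (n = 3). The ringed point is scramble array 3, and in every probe set the 3 red points lie under all 3 blue points.

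One array stood apart. Scramble array 3 had 53.8 times as much actin signal at the 3' end as at the 5' end, where the other 23 arrays had 1.2 to 2.14 times. For GAPDH these values were 2.35 and 0.798 to 0.948. The actin value of 2.14 was that of scramble array 1, which stays in the fits without scramble array 3. MCT1 shRNA arrays 1 to 3 had 1.39, 1.49 and 1.73. The residual spread of scramble array 3 was the largest of the 24, 0.37 on the log2 scale against 0.199 to 0.277. Counts and the leading changes are therefore given without it too. Of the 199 genes chosen for naming 43 lost their call without it. Of the marker sums, the epithelial one (7 genes) ran from 44733 to 48600 units with scramble and from 56257 to 60282 with MCT1 shRNA. Its only called gene was KRT19, at 5151 to 6584 units with scramble and 12612 to 13155 with MCT1 shRNA. CDH1, EPCAM and KRT18 were among those not called. The mesenchymal sum (4 genes) ran from 20617 to 21513 units with scramble and from 18385 to 23660 with MCT1 shRNA. Basal and luminal hormone receptor sums also overlapped between the groups. Leukocyte (3 genes) and endothelial (3) sums stayed between 65.6 and 158 units in both groups. The adipocyte sum (3 genes) was low, from 12.4 to 15.8 units with scramble and from 20.5 to 109 with MCT1 shRNA. The fibroblast sum (4 genes) ran from 1921 to 2539 with scramble and from 3178 to 3726 with MCT1 shRNA. In that list DCN gave 1050.4, 1059 and 873 units with scramble and 2637, 2391 and 2634 with MCT1 shRNA, COL3A1 and LUM stayed dim, and COL1A1 was not higher with MCT1 shRNA. The part of these sums in the results was not tested.

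Of 14141 genes tested, 2101 (14.9%) passed an adjusted p under 0.05, 1021 higher (7.22%) and 1080 lower (7.64%) with MCT1 shRNA. Most of these differences were small: the median size was 0.488 on the log2 scale, 1382 genes changed less than 1.5-fold, and 161 changed at least 2-fold, 110 of them upward. Past 4-fold there were 8 genes higher and 1 lower. Without scramble array 3 the count was 1735 (12.3%), with 870 higher (6.15%) and 865 lower (6.12%). Of the 2101 genes 1409 were called in the same direction without it, and of the 161 changed at least 2-fold 134 were. With the 6 arrays fitted alone the count was 864, and with each array centred on its median over all probe sets it was 1726, with 398 higher and 1328 lower. For most gene lists below, pairs of numbers in brackets give the members that rose and fell without scramble array 3 and with median centring. These pairs are to be read against the 7.22% and 7.64% of all genes. No list counts are given for the 6 arrays fitted alone. Among 1241 called genes with 2 or more tested probe sets, 397 (32.0%) had a second one called in the same direction and 16 had one called in the other direction. The scramble and MCT1 shRNA arrays did not overlap in 29.8% of all genes tested.

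The largest rise was that of AGR2. AGR2, a protein disulfide isomerase of the endoplasmic reticulum that secretory epithelia make, gave 275, 254 and 299 units on scramble arrays 1 to 3 and 3626, 3772 and 4006 on MCT1 shRNA arrays 1 to 3. All MCT1 shRNA values exceeded every scramble value and the groups lay far apart, with a log2 fold change of 3.71 ± 0.16 (limma adjusted p = 2.83e-13) that was 3.77 without scramble array 3. BHLHA15 encodes MIST1, a transcription factor of secretory cells, and gave 383, 334 and 341 units with scramble and 1112, 1038 and 1169 with MCT1 shRNA, a rise of 1.61 ± 0.17 (1.58 without scramble array 3). The tetraspanin gene TSPAN1 gave 326, 251 and 206 units with scramble and 897, 769 and 841 with MCT1 shRNA, and its change was 1.49 without scramble array 3. The matrix genes MGP, an inhibitor of calcification, and ECM2 rose by 2.45 ± 0.19 and 2.39 ± 0.20 (2.69 and 2.49 without scramble array 3): MGP gave 1434, 1386 and 2308 units with scramble and 8386, 9096 and 10117 with MCT1 shRNA, with its highest scramble value on array 3. CH25H, which makes 25-hydroxycholesterol, gave 40.8, 38.8 and 45.7 units with scramble and 299.8, 269 and 330.5 with MCT1 shRNA and rose by 2.45 ± 0.25 or 2.50 without that array. The adaptor gene GRB10, which damps insulin and IGF receptor signalling, gave 72.3, 57 and 46.6 units with scramble and 277, 238 and 289 with MCT1 shRNA (a rise of 1.94 ± 0.13, or 1.82 without it), and all 3 of its tested probe sets were called higher. The RNAs LURAP1L-AS1 and LINC02806 rose by 2.00 ± 0.28 and 1.95 ± 0.29, or 2.28 and 1.75 without it.

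The size of one of the largest rises rests on a single array. STT3A, the catalytic subunit of the oligosaccharyltransferase, gave 2512, 2418 and 228 units on scramble arrays 1 to 3 and 3599.7, 3426 and 3451 on MCT1 shRNA arrays 1 to 3. Scramble array 3 alone was low, and the log2 fold change of 1.61 ± 0.47 became 0.50 without it (limma adjusted p = 0.023 and 5.43e-05). Each fit without 1 of the MCT1 shRNA arrays put STT3A short of the threshold, at adjusted p = 0.0581 to 0.0643 in limma.

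IGFBP7, a secreted binding protein of the IGF system, gave 205, 224 and 102 units on scramble arrays 1 to 3 and 11.6, 8.48 and 8.64 on MCT1 shRNA arrays 1 to 3. The MCT1 shRNA values all lay under the offset of 16, so the log2 fold change of -2.85 ± 0.16 (-3.17 without scramble array 3) depends on that offset. The replication-dependent histone gene H3C8 gave 195, 203 and 259.9 units with scramble and 16.4, 77.8 and 63.3 with MCT1 shRNA, a change of -1.91 ± 0.49 that was lost without MCT1 shRNA array 1 (limma adjusted p = 0.0746). TAGLN, an actin-binding protein of contractile cells, gave 376, 352 and 236 units with scramble and 77.9, 90 and 114 with MCT1 shRNA, with 2 of 3 tested probe sets called lower. CCBE1, a matrix protein that activates VEGF-C, changed by -1.60 ± 0.16, though 1 of its 3 tested probe sets was called. CBR3, a carbonyl reductase, gave 2013, 1693 and 2093 units with scramble and 656, 778 and 853 with MCT1 shRNA. The phosphatase gene PTPN22 changed by -1.30 ± 0.15 with all 3 tested probe sets called lower, and the adhesion gene NEGR1 and the matrix gene CCDC80 by -1.27 ± 0.18 and -1.26 ± 0.11 with 2 of 3 each. EHF, an ETS factor of epithelia, gave 525, 612 and 529 units with scramble and 234, 205 and 243 with MCT1 shRNA and changed by -1.23 ± 0.23. The metalloproteinase gene ADAM19, the ubiquitin adaptor gene UBALD2 and the pseudogene BMS1P20 changed by -1.23 ± 0.12, -1.18 ± 0.14 and -1.18 ± 0.11, each with 1 of 2 tested probe sets called. The mean of its probe sets turned BMS1P20 to 0.17. Without scramble array 3 the changes of TAGLN, CCBE1, CBR3, PTPN22, NEGR1, CCDC80, EHF, ADAM19 and UBALD2 lay between -1.80 (TAGLN) and -0.95 (UBALD2), all called.

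Among these falls 2 were lost without scramble array 3. LINC00518 changed by -1.14 ± 0.30 with all arrays and by -1.01 without it (limma adjusted p = 0.051), and KHDC1L by -1.12 ± 0.29 and -0.79 (limma adjusted p = 0.0902). KHDC1L was also lost without MCT1 shRNA array 1, at an adjusted p of 0.0577 in limma. HSD11B1-AS1 gave 291, 238 and 532 units with scramble and 158, 165 and 119 with MCT1 shRNA, with its highest value on scramble array 3, and changed by -0.79 without it (limma adjusted p = 0.0479).

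**Figure D2:**
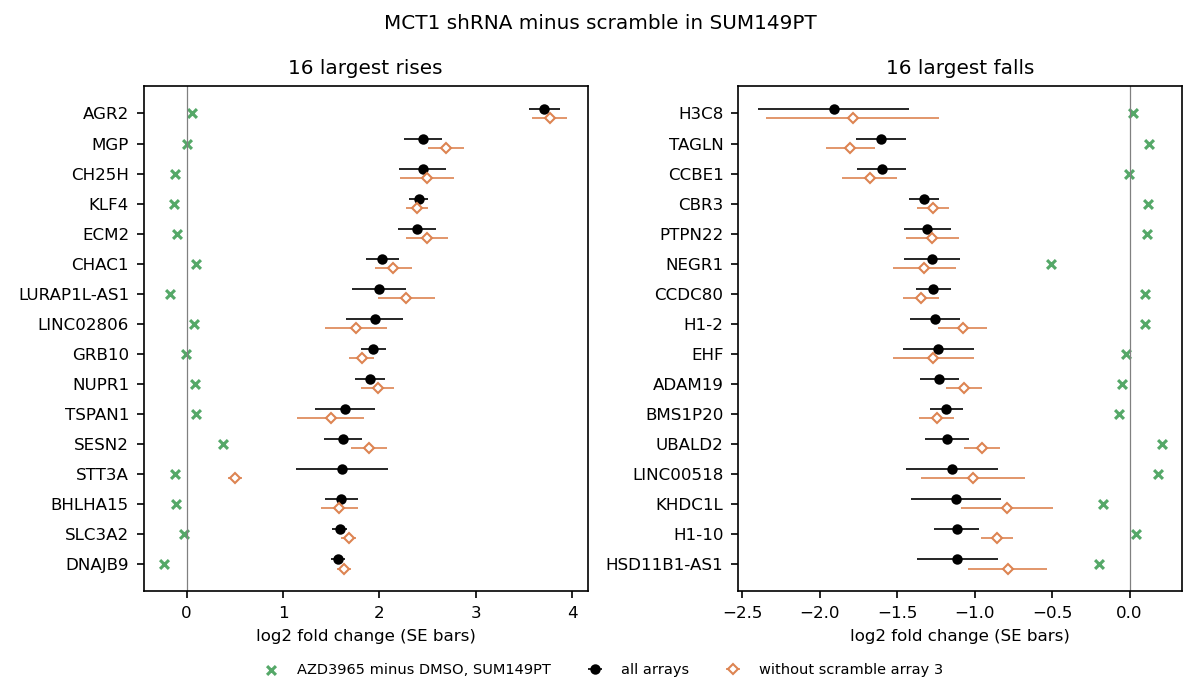
Log2 fold change with its SE of the 16 genes of largest rise (left) and largest fall (right), MCT1 shRNA minus scramble with all arrays (black) and without scramble array 3 (orange). Green crosses give the AZD3965 minus DMSO change of the same genes in SUM149PT, which lies between -0.50 and 0.38 while the black points lie beyond 1.

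Most measured genes of the ATF4 response list rose. The gene lists were chosen with earlier results of these data known. List counts here and below therefore describe the lists and are not independent tests. Of 20 measured transcription factors and stress effectors, 13 rose and none fell, with a median log2 fold change of 0.59 against -0.003 over all genes tested and 7.22% of them higher. The counts were 11 and 0 without scramble array 3, 10 and 0 with median centring, and the median without that array was 0.49. ATF4 itself gave 10699, 10491 and 12641 units on scramble arrays 1 to 3 and 14358, 14592 and 18769.9 on MCT1 shRNA arrays 1 to 3, with no overlap, and rose by 0.49 ± 0.08. CHAC1, which breaks down glutathione, gave 137, 177 and 201 units with scramble and 693, 721 and 826 with MCT1 shRNA and rose by 2.03 ± 0.17 (limma adjusted p = 2.73e-08), or 2.15 without scramble array 3. The chromatin-binding stress gene NUPR1 gave 232, 237 and 281 units with scramble and 929, 1083 and 922 with MCT1 shRNA. SESN2, which inhibits mTORC1 when leucine is short, gave 132, 74.8 and 187 units with scramble and 371, 449.8 and 429.6 with MCT1 shRNA, a rise of 1.63 ± 0.20. TRIB3, a pseudokinase that restrains ATF4, gave 1836, 1755 and 1719.8 units with scramble and 3235, 2919 and 3167 with MCT1 shRNA and rose by 0.81 ± 0.08. DDIT3, which encodes CHOP, a factor tied to cell death under stress, rose less, by 0.67 ± 0.14. The secreted factors INHBE, GDF15 and STC2 rose by 2.19 ± 0.27, 1.59 ± 0.33 and 1.44 ± 0.18. INHBE was dim with scramble, at 24.4, 22.7 and 12.7 units, so the offset of 16 lowers its change. The scramble value of STC2 was lowest on array 3 (522, 493 and 221 units), and without it the rise was 1.06.

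Amino acid transporters rose with them. In this list 10 of 22 measured members rose and 1 fell, with a median of 0.33, and without scramble array 3 11 rose and none fell, while 6 rose and 1 fell with median centring. SLC3A2, the heavy chain (4F2hc) shared by several exchangers, gave 2736, 3226 and 3587 units on scramble arrays 1 to 3 and 9650.1, 9467 and 9552 on MCT1 shRNA arrays 1 to 3. The 3 MCT1 shRNA values lay close together and far above scramble, a rise of 1.59 ± 0.08 (limma adjusted p = 1.91e-12; 1.68 without scramble array 3). Its partner SLC7A11, the cystine-glutamate exchanger xCT, gave 469.7, 534 and 534 units with scramble and 1375, 1561 and 1169 with MCT1 shRNA and rose by 1.38 ± 0.10. The partner that brings in leucine, SLC7A5, gave 6972, 5996 and 9446 units with scramble and 9482, 9309.8 and 9869 with MCT1 shRNA: its scramble array 3 reached the MCT1 shRNA range. Its rise was 0.38 ± 0.10 with all arrays and 0.56 without that array (limma adjusted p = 0.0124 and 9.69e-06), and it was lost without MCT1 shRNA array 3 (0.0502), scramble array 1 (0.05) or scramble array 2 (0.0858). The neutral amino acid carriers SLC1A4 and SLC1A5 rose by 1.16 ± 0.14 and 0.91 ± 0.12, and SLC1A5, which takes up glutamine, gave 505, 526 and 464 units with scramble and 1015, 1049 and 809 with MCT1 shRNA. Cationic amino acid import through SLC7A1 gave 7850.1, 7481 and 6105 units with scramble and 9696, 10696 and 10936 with MCT1 shRNA. SLC38A9, the lysosomal arginine sensor of mTORC1, rose by 0.53 ± 0.09.

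Enzymes that make serine, asparagine and cysteine also rose. Of 15 measured enzymes of asparagine, aspartate, arginine and proline metabolism 5 rose and none fell (4 and 0 without scramble array 3, 4 and 0 with median centring). ASNS, which makes asparagine and is a standard ATF4 target, gave 4555, 4643 and 5259 units on scramble arrays 1 to 3 and 10959, 11388 and 11981 on MCT1 shRNA arrays 1 to 3. It rose by 1.25 ± 0.07 (limma adjusted p = 5.93e-11; 1.31 without scramble array 3). ASS1, the argininosuccinate synthase, gave 3143, 2879.9 and 3800.3 units with scramble and 7502, 7752 and 7664 with MCT1 shRNA and rose by 1.23 ± 0.08. CBS and CTH, which turn homocysteine into cysteine, rose by 1.24 ± 0.16 and 0.91 ± 0.14. Among 13 serine, glycine and one-carbon enzymes 4 rose and 2 fell (4 and 0 without scramble array 3, 2 and 2 with median centring). PHGDH and PSAT1, the first steps of serine synthesis, rose by 0.76 ± 0.12 and 0.45 ± 0.08, and the mitochondrial folate enzyme ALDH1L2 gave 42.5, 47.1 and 41.5 units with scramble and 198, 173 and 166 with MCT1 shRNA. The falls, in TYMS and MTHFD2L, were not called without scramble array 3 (limma adjusted p = 0.0891 and 0.264). SHMT2 rose by 0.34 ± 0.09, a call lost without MCT1 shRNA array 2 (0.0573) or 3 (0.0804).

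Enzymes that charge tRNAs in the cytosol and in mitochondria are mostly encoded by separate genes. Of 17 measured cytosolic aminoacyl-tRNA synthetases 10 rose and none fell (median 0.30; 8 rose without scramble array 3, and 6 rose and 1 fell with median centring), while of 15 mitochondrial ones none passed in either direction, with a median of -0.01. The tryptophan enzyme WARS1 gave 1573, 1406 and 1706 units with scramble and 2733, 2809 and 3105 with MCT1 shRNA and rose by 0.88 ± 0.09. AARS1, for alanine, gave 3355, 3208 and 2934 units with scramble and 5483, 5749 and 5756 with MCT1 shRNA, a rise of 0.84 ± 0.08. GARS1, for glycine, gave 6373, 6480.3 and 5554 units with scramble and 9134, 9766 and 10398 with MCT1 shRNA. CARS1, EPRS1 and SARS1 rose by 0.60 ± 0.09, 0.53 ± 0.08 and 0.52 ± 0.09, and IARS1 by 0.38 ± 0.07. The 2 lost without scramble array 3 were TARS1 and LARS1 (limma adjusted p = 0.0829 and 0.224). All 15 mitochondrial members lay between -0.17 and 0.09, and the difference between the compartments was not tested as such.

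Promoter sequence was set beside these changes for the genes with a RefSeq entry (GRCh38.p14, 250 bases before the annotated start). The amino acid response motif TGATGNAA, in which ATF4 pairs with a C/EBP partner, was searched on both strands. It was present in 201 of 11393 promoters of genes tested (1.76%), in 30 of 838 of those called higher (3.58%), in 10 of 84 of those higher by at least 2-fold (11.9%) and in 10 of 915 of those called lower (1.09%). Of those lower by at least 2-fold 2 of 37 held it (5.41%), PTPN22 and NLRP3. The 10 higher by at least 2-fold are CHAC1, LURAP1L-AS1, LINC02806, SEMA3C, ASNS, ADH6, SLITRK6, HERPUD1, TREM1 and TCN1. These shares are descriptions, and a match does not show binding. In the promoters of 4 risers below, printed because they rose and hold the motif, capitals mark it, and where it lies on the other strand they spell its reverse complement. ASNS was added to this set after its values were seen.
CHAC1 chr15:40953221-40953470, plus strand: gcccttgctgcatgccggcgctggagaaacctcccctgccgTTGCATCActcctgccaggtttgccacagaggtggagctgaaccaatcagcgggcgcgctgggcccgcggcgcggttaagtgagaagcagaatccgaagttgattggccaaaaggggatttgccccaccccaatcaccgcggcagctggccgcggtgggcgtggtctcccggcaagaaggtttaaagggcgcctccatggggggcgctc
ASNS chr7:97872409-97872658, minus strand: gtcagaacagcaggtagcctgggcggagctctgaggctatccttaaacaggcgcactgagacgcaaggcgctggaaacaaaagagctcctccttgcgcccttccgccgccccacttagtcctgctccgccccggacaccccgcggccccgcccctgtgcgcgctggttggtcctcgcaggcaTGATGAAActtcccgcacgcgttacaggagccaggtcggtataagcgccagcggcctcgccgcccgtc
AARS1 chr16:70289507-70289756, minus strand: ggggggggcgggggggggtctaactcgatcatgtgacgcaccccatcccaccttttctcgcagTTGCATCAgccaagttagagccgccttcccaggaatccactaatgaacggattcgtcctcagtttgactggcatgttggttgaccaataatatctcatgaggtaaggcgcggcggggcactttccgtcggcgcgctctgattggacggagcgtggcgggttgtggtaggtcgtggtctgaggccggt
IARS1 chr9:92293698-92293947, minus strand: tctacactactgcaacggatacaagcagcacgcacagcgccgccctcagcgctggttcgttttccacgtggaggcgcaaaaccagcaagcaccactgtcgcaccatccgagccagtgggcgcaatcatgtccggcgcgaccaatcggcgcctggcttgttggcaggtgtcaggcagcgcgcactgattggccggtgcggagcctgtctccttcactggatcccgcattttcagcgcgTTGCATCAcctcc

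No match was found in this window for SESN2 or SLC3A2, which rose by 1.63 ± 0.20 and 1.59 ± 0.08 on the log2 scale. The absence concerns these 250 bases only. Of the 8 called synthetases with an entry 2 held the motif, AARS1 and IARS1, against 2 of all 14 cytosolic synthetases with an entry. None of the 10 called amino acid transporters with an entry held it.

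Genes of the endoplasmic reticulum rose in part. Of 30 measured chaperones and degradation genes 13 rose and 2 fell, with a median of 0.29, and without scramble array 3 15 rose and 1 fell. With median centring 6 rose and 2 fell. DNAJB9, a co-chaperone that keeps IRE1 in check, gave 1287, 1201 and 1409.6 units on scramble arrays 1 to 3 and 3857, 3999.6 and 3826 on MCT1 shRNA arrays 1 to 3. Its 3 tested probe sets were all called higher, and the rise was 1.57 ± 0.07 (1.63 without scramble array 3). HERPUD1, which organises degradation of misfolded proteins, gave 3110.4, 3206 and 3335 units with scramble and 6655, 7216 and 7206 with MCT1 shRNA, a rise of 1.12 ± 0.07. SEL1L and EDEM1, of the same degradation pathway, rose by 0.73 ± 0.11 and 0.65 ± 0.09, and XBP1, the transcription factor activated by IRE1, by 0.70 ± 0.10. The main chaperone HSPA5 (BiP) gave 15501, 15974 and 10439 units with scramble and 18805, 20308 and 20651 with MCT1 shRNA, with scramble array 3 low, and rose by 0.54 ± 0.10 or 0.34 without it. EIF2AK3, the eIF2 kinase PERK, rose by 0.53 ± 0.12. The isomerase gene PDIA4 fell by 0.32 ± 0.08. CALR, calreticulin, gave 7255, 4977 and 9386 units with scramble and 4580.3, 4985 and 5105 with MCT1 shRNA, and its call was lost without scramble array 3 (limma adjusted p = 0.126), scramble array 1 (0.0512) or MCT1 shRNA array 1 (0.0676).

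The endoplasmic reticulum stress element, CCAAT and CCACG with 9 bases of any kind between them, read by ATF6 with the factor NF-Y, was rare: 13 of 11393 promoters of genes tested held it on either strand (0.114%), and 7 of those 13 were among the 27 genes of this list with an entry. Called members with it were XBP1, HSPA5, CANX and CALR, of which CALR lay lower. HSP90B1, CRELD2 and ERO1B held it and did not pass the test with all arrays, and ERO1B passed without scramble array 3. The 2 promoters below carry the element in capitals and belong to the 2 called members of largest rise that hold it.
XBP1 chr22:28800570-28800819, minus strand: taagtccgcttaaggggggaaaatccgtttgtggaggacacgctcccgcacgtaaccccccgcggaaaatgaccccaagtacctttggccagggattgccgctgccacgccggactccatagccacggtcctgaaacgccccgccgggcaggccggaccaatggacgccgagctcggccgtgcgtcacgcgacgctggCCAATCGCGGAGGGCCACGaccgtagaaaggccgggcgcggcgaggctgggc
HSPA5 chr9:125241344-125241593, minus strand: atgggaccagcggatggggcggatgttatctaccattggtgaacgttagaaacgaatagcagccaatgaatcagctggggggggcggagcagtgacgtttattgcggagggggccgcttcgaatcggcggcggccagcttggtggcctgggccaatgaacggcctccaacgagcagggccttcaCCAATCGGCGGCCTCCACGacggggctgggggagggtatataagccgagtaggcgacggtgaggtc

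Of 11 measured heat shock genes, most of them cytosolic and some mitochondrial, none rose and 4 fell (0 and 2 without scramble array 3, 0 and 4 with median centring), and 2 fell without MCT1 shRNA array 2 or 3. HSPB1, a small heat shock protein, gave 7276, 6557 and 6556 units with scramble and 4459, 5074 and 4669 with MCT1 shRNA and changed by -0.52 ± 0.10, and the mitochondrial co-chaperonin HSPE1 gave 13440.0, 13663 and 21768 units with scramble and 11709.8, 11822 and 11229.7 with MCT1 shRNA, with its highest value on scramble array 3, and changed by -0.45 ± 0.11 or -0.23 without it. STIP1 turned to 0.57 with the mean of its probe sets. DNAJB1 and STIP1 lost their calls without that array (limma adjusted p = 0.115 and 0.157).

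**Figure D3:**
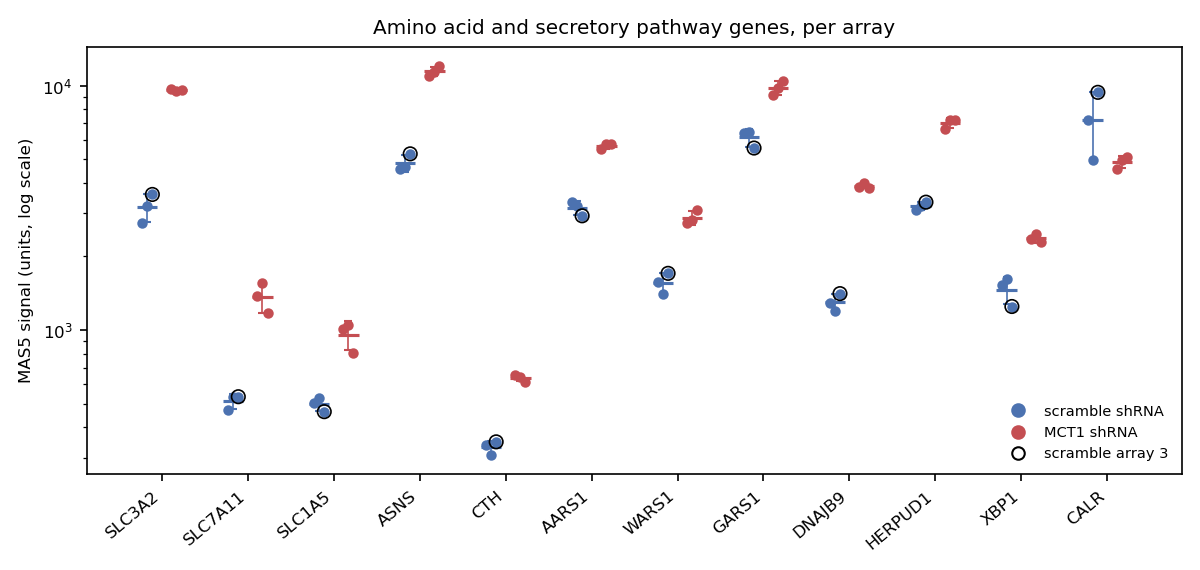
MAS5 signal (log axis) per array of 12 amino acid and endoplasmic reticulum genes, scramble in blue and MCT1 shRNA in red, with the group mean and SD (n = 3). The 12 genes were picked with their values known. In 11 of them the groups do not overlap, as they do not in 29.8% of all genes tested. CALR, the exception, has its highest value on the ringed scramble array 3.

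Hypoxia-responsive genes were higher. Of 26 measured members 16 rose and none fell, with a median of 0.28, and 11 rose without scramble array 3 (median 0.26) and 10 without MCT1 shRNA array 3. With median centring 5 rose. These genes are targets of HIF-1, though ATF4 also regulates several of them. NDRG1, a stress-responsive growth regulator, gave 2939, 2776 and 3117 units on scramble arrays 1 to 3 and 7622, 7690.3 and 8272 on MCT1 shRNA arrays 1 to 3 and rose by 1.41 ± 0.08 (limma adjusted p = 5.93e-11). VEGFA, the angiogenic growth factor, gave 2309, 2689 and 2561 units with scramble and 5283, 4998 and 5635 with MCT1 shRNA, a rise of 1.07 ± 0.11. Adrenomedullin (ADM) and the collagen hydroxylase P4HA1 rose by 0.81 ± 0.10 and 0.62 ± 0.06. Smaller rises came from the demethylase gene KDM3A (0.44 ± 0.07), the mitophagy gene BNIP3 (0.39 ± 0.06) and LOX, the collagen cross-linking oxidase (0.55 ± 0.11). Those called with all arrays and not without scramble array 3 were ANGPTL4, EGLN1, PLOD2, CA12, SLC2A1 and DDIT4 (limma adjusted p from 0.0528 to 0.172). The hypoxia motif TACGTG was found in 7 of 22 promoters of the list with an entry (31.8%) and in 2.79% of all. As the list is made of HIF-1 targets, this share describes the list and not its change with MCT1 shRNA.

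Of 19 measured glycolytic enzymes and glucose transporters 3 rose and none fell (1 and 0 without scramble array 3, 0 and 0 with median centring): SLC2A3, SLC2A1 and HK2, with only SLC2A3 called without scramble array 3 (0.61 ± 0.16 with all arrays, and lost without MCT1 shRNA array 3 at 0.0572). None of 30 oxidative phosphorylation subunits passed (median 0.01). Without scramble array 3 the subunit count was 2 higher, and without scramble array 2 it was 4 lower. Of 30 genes of pyruvate entry and the TCA cycle 3 rose and 2 fell (3 and 1 without scramble array 3, 1 and 2 with median centring). The mitochondrial pyruvate carrier MPC1 gave 1597, 1721 and 2166 units with scramble and 2618, 2689.8 and 2770.0 with MCT1 shRNA and rose by 0.57 ± 0.08. PDHA1, a subunit of pyruvate dehydrogenase, rose by 0.41 ± 0.09, and SUCLG2 changed by -0.35 ± 0.09, or by 0.0067 with the mean of its probe sets. PPARGC1A, the coactivator PGC-1 alpha of mitochondrial biogenesis, was dim and gave 32.5, 33.4 and 20.5 units on scramble arrays 1 to 3 and 156, 165 and 208 on MCT1 shRNA arrays 1 to 3. Its groups did not overlap and it rose by 2.11 ± 0.31, alone among the 14 measured regulators of that list. Of 5 measured monocarboxylate transporter and chaperone genes, SLC16A7 (MCT2) gave 367, 641 and 323 units with scramble and 788, 874 and 661 with MCT1 shRNA, a rise of 0.84 ± 0.24 that was lost without scramble array 3 (0.111 in limma), scramble array 1 (0.0762), MCT1 shRNA array 1 (0.0607) or array 2 (0.0847).

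Lipid genes moved in both directions. Of 22 measured cholesterol genes 2 rose and 7 fell (2 and 6 without scramble array 3, 2 and 7 with median centring). HMGCS1, the enzyme that commits acetyl units to sterols, gave 538, 468 and 504 units with scramble and 299, 334 and 328 with MCT1 shRNA and changed by -0.63 ± 0.11, and ACAT2 and INSIG1, a sterol-sensing retention protein, by -0.42 ± 0.08 and -0.39 ± 0.10. The rises were CH25H and the cholesterol exporter ABCA1 (0.79 ± 0.20, lost without MCT1 shRNA array 2 at 0.0607). Of 22 fatty acid oxidation enzymes 5 rose and none fell (3 and 0 without scramble array 3, 1 and 0 with median centring), and 3 rose without MCT1 shRNA array 1. Among those called with all arrays were ACADSB and ETFDH, at 0.63 ± 0.15 and 0.43 ± 0.10. ACADSB was lost without scramble array 1 (limma adjusted p = 0.0561). Of 16 fatty acid synthesis and desaturation genes 2 rose and 2 fell (2 and 2 without scramble array 3, 1 and 3 with median centring). The desaturase gene FADS3 gave 222, 282 and 349 units with scramble and 538, 574 and 612 with MCT1 shRNA. FASN, the fatty acid synthase, gave 1347, 1248 and 2929.6 units with scramble and 1145, 1207 and 1148 with MCT1 shRNA: 1 scramble array was high, and without it the change was -0.15 (limma adjusted p = 0.301). Of 10 MondoA and arrestin-domain genes 4 rose and 1 fell (4 and 1 without scramble array 3, 2 and 1 with median centring). TXNIP, which binds thioredoxin and restrains glucose uptake, gave 3316, 3499 and 4239 units with scramble and 6549.7, 7483 and 7429.9 with MCT1 shRNA and rose by 0.96 ± 0.10, and its relative ARRDC3 rose by 0.96 ± 0.18.

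Genes of mitosis were lower almost throughout. Of 40 measured spindle, checkpoint and cytokinesis genes 35 fell and none rose, with a median of -0.49, against 7.64% of all genes lower. The count was 30 without scramble array 3 (median -0.46) and at least 30 without each other array, and 35 with median centring. No member changed 2-fold. TPX2, which activates Aurora A on the spindle, gave 3981, 3602 and 5393 units on scramble arrays 1 to 3 and 2396, 2288 and 2517 on MCT1 shRNA arrays 1 to 3 and changed by -0.82 ± 0.09, or -0.66 without scramble array 3. NUF2, a kinetochore protein that holds microtubules, gave 3259.7, 3329 and 3627 units with scramble and 2049.7, 1890.4 and 1918 with MCT1 shRNA and changed by -0.80 ± 0.07 (limma adjusted p = 7.64e-08). The centrosome kinase gene NEK2 gave 4354, 4274 and 4251 units with scramble and 2645, 2459 and 2571 with MCT1 shRNA. KIF20A, a cytokinesis motor, gave 5692, 5154 and 4996 units with scramble and 3331, 3173 and 3170.2 with MCT1 shRNA, a change of -0.71 ± 0.07. CCNB2, a mitotic cyclin, and KIF11, the motor that separates the poles, changed by -0.67 ± 0.06 and -0.66 ± 0.09. FOXM1, the transcription factor that drives many of these genes, gave 2984, 2512 and 3407 units with scramble and 1961, 1647 and 2017 with MCT1 shRNA and changed by -0.65 ± 0.10. Those lost without scramble array 3 were UBE2C, CDK1, NUSAP1, ASPM, CDC20, CENPF, MAD2L1 and KIF14, while 3 members were called without that array only.

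Mitotic genes are held down outside division by a complex that reads the element TTTGAA (CHR), often beside CCAAT boxes bound by NF-Y. The letters TTTGAA occurred on either strand in 16 of 34 promoters of this list with an entry (47.1%) and in 1011 of 11393 of all (8.87%). Of the 29 called members with an entry 13 held TTTGAA (44.8%), so its share describes the list and not the change. The promoters of CCNB2 and KIF11, the called members of largest fall with both TTTGAA and CCAAT, are printed with it in capitals, which read TTCAAA where it lies on the other strand.
CCNB2 chr15:59104896-59105145, plus strand: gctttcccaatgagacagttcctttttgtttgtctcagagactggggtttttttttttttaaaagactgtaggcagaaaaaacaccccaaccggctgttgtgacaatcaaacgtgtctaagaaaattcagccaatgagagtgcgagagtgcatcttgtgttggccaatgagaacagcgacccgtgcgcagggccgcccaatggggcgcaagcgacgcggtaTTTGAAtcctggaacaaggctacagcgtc
KIF11 chr10:92592880-92593129, plus strand: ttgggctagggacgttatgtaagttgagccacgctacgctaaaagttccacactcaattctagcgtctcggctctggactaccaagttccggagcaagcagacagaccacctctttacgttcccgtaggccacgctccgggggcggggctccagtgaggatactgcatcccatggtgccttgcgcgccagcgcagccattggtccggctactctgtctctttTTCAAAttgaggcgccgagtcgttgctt

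Replication genes were also lower. Of 38 measured members none rose and 16 fell (median -0.25; 0 and 11 without scramble array 3, 0 and 19 with median centring). The falls were 10 without MCT1 shRNA array 1 and 7 without MCT1 shRNA array 2. POLE2, a subunit of polymerase epsilon, gave 3482, 3409 and 4301 units with scramble and 2725, 2332 and 2692 with MCT1 shRNA and changed by -0.52 ± 0.08, and the helicase subunit MCM3 and the clamp loader subunits RFC2 and RFC3 by -0.39 ± 0.07, -0.36 ± 0.07 and -0.28 ± 0.06. LIG1, GINS2 and POLA2 had their highest values on scramble array 3 and were not called without it (limma adjusted p = 0.195, 0.0875 and 0.121). Of 18 histone genes none rose and 4 fell (0 and 3 without scramble array 3, 0 and 4 with median centring). The linker histones H1-2 and H1-10 gave 526, 368 and 646 and 1166, 1167 and 2013 units with scramble. With MCT1 shRNA they gave 204, 222 and 178 and 616, 634 and 664 units. H1-2 changed by -1.25 ± 0.16 and H1-10 by -1.11 ± 0.14, or -1.07 and -0.85 without scramble array 3, where H1-10 had been highest. H2AX, the damage-marking variant, lost its call without that array (limma adjusted p = 0.0538).

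Regulators of G1 moved both ways. CDKN1B, the inhibitor p27, gave 2302, 2138 and 1368 units on scramble arrays 1 to 3 and 3236, 3094 and 2931 on MCT1 shRNA arrays 1 to 3, with the lowest value on scramble array 3, and rose by 0.70 ± 0.13 or 0.47 without it. Cyclin E1 (CCNE1) gave 705, 599 and 761 units with scramble and 953, 999 and 1077 with MCT1 shRNA and rose by 0.55 ± 0.10. Its kinase CDK2 gave 2891, 3176 and 2747 units with scramble and 1884, 1790.4 and 1966 with MCT1 shRNA and changed by -0.64 ± 0.07, and CDK6 changed by -0.54 ± 0.09. In all 2 of 21 measured members rose and 4 fell (3 and 3 without scramble array 3, 2 and 4 with median centring), against 7.22% and 7.64% of all genes. Of 25 MYC and nucleolar genes 1 rose and 2 fell (1 and 1 without scramble array 3, 1 and 3 with median centring). The MYC antagonist MXD1 rose by 0.71 ± 0.12 and MXD3, which is made in dividing cells, changed by -1.03 ± 0.23.

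**Figure D4:**
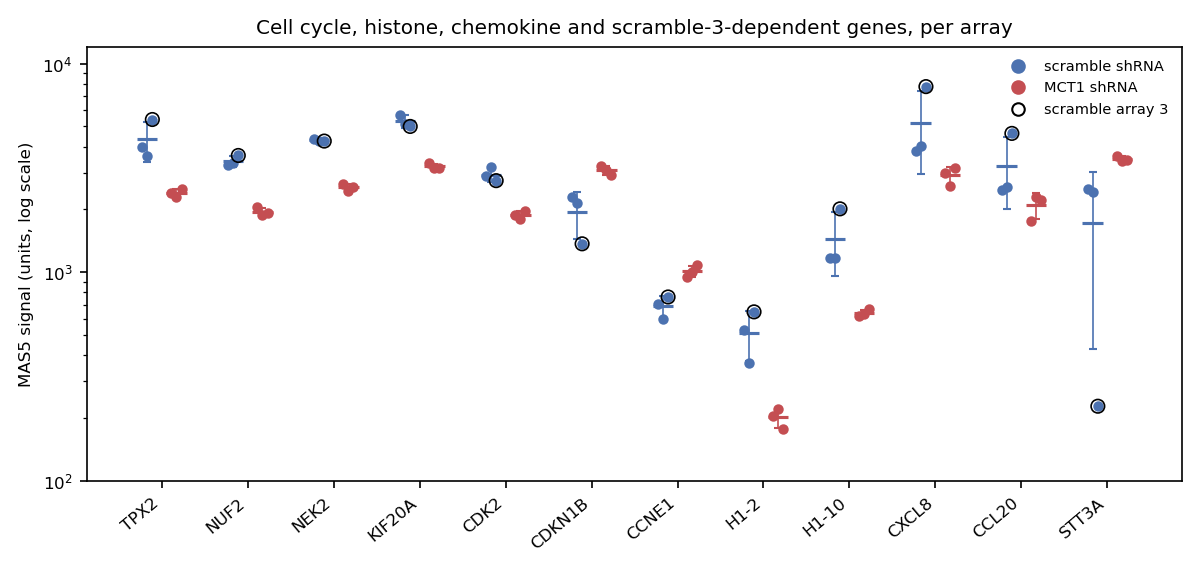
MAS5 signal (log axis) per array of cell cycle and histone genes, of 2 chemokine genes and of STT3A, scramble in blue and MCT1 shRNA in red, with the group mean and SD (n = 3). TPX2, NUF2, NEK2, KIF20A, CDK2, H1-2 and H1-10 are lower with MCT1 shRNA without overlap, and in H1-10, CXCL8, CCL20 and STT3A the ringed scramble array 3 lies away from the other scramble arrays.

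KLF4, a Kruppel-like factor that restrains proliferation in many epithelia, gave 308, 470.5 and 369 units on scramble arrays 1 to 3 and 2069.5, 2180.4 and 1959 on MCT1 shRNA arrays 1 to 3. Both tested probe sets were called higher, and the rise was 2.41 ± 0.10 (limma adjusted p = 2.83e-13; 2.39 without scramble array 3). In the family 5 of 13 measured members rose and 1 fell (4 and 1 without scramble array 3, 3 and 3 with median centring). Without MCT1 shRNA array 2 these were 3 and 3, and without scramble array 1 they were 3 and 1. KLF15, dim at 9.62, 22.5 and 10 units with scramble, rose by 1.41 ± 0.22 and KLF10 by 0.46 ± 0.09, whereas KLF11 changed by -0.59 ± 0.11. KLF5 and KLF3 rose by 0.72 ± 0.19 and 0.48 ± 0.15, but KLF5 was lost without MCT1 shRNA array 2 (0.0525) or scramble array 1 (0.0725), and KLF3 without 4 of the 6 arrays (limma adjusted p from 0.0538 to 0.178). Of 21 luminal and secretory regulators 5 rose and 1, EHF, fell (5 and 1 without scramble array 3, 4 and 1 with median centring). The simple-epithelium keratin KRT19 gave 6584, 6557 and 5151 units with scramble and 12857, 12612 and 13155 with MCT1 shRNA, a rise of 1.08 ± 0.10. GATA3, a luminal transcription factor, rose by 0.60 ± 0.12, and KRT8 by 0.64 ± 0.17, a call lost without scramble array 3 (limma adjusted p = 0.0798). Of 14 basal markers 1 rose, KRT15, by 1.14 ± 0.24 (2 and 0 without scramble array 3, 1 and 0 with median centring). Of 22 junction genes 1 rose, CLDN1, by 0.67 ± 0.15 (1 and 0 without scramble array 3, 1 and 1 with median centring).

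Mesenchymal, contractile and matrix lists held both rises and falls, where 7.22% of all genes rose and 7.64% fell. Of 23 mesenchymal regulators 2 rose and 4 fell (2 and 6 without scramble array 3, 2 and 5 with median centring), and the falls were 1 without scramble array 2 and 2 without scramble array 1 or MCT1 shRNA array 2 or 3. SNAI2, the repressor Slug, gave 2394, 2306 and 2275 units with scramble and 1889.9, 1614 and 1738 with MCT1 shRNA and changed by -0.41 ± 0.07, and decorin (DCN), a collagen-binding proteoglycan, rose by 1.35 ± 0.10. Of 24 collagen chains 5 rose and 2 fell (5 and 2 without scramble array 3, 3 and 2 with median centring). The beaded filament chain COL6A1 gave 714, 531 and 619 units with scramble and 1095, 1054 and 1345 with MCT1 shRNA and rose by 0.89 ± 0.12, and the basement membrane chains COL4A5 and COL4A6, which are neighbours on the X chromosome, by 0.58 ± 0.10 and 0.87 ± 0.16. COL13A1, a transmembrane collagen, changed by -1.03 ± 0.11, and COL15A1 by -1.35 ± 0.20. Of 38 matrix glycoproteins 7 rose and 4 fell (10 and 4 without scramble array 3, 6 and 4 with median centring). LAMA5, a laminin chain, rose by 0.66 ± 0.16, while EFEMP1, a fibulin, gave 10284, 9929 and 10915 units with scramble and 6489, 6838 and 7052 with MCT1 shRNA and changed by -0.61 ± 0.06. The integrin chains ITGB8 and ITGA2 rose by 0.97 ± 0.23 and 0.70 ± 0.12, the only calls among 18 with all arrays (2 and 2 without scramble array 3, 2 and 2 with median centring). The plasminogen genes PLAT and PLAUR, activator and receptor, changed by -0.72 ± 0.16 and -0.57 ± 0.06. Among 22 contractile genes 2 rose and 2 fell (1 and 3 without scramble array 3, 1 and 3 with median centring). MYLK, the myosin light chain kinase, rose by 0.89 ± 0.08, opposite to TAGLN. MYH10 and MYL9, the list's other calls, were lost without scramble array 3 (limma adjusted p = 0.262 and 0.117).

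Growth factor signalling genes changed on both sides of the IGF axis. Of 14 measured members 5 rose and 2 fell (6 and 2 without scramble array 3, 4 and 2 with median centring). IRS2, an adaptor of the insulin and IGF receptors, gave 2384, 2652 and 2031 units with scramble and 4391, 4541 and 4466 with MCT1 shRNA and rose by 0.93 ± 0.19. IGF2R, which clears IGF2, and the binding protein IGFBP3 rose by 0.71 ± 0.12 and 1.21 ± 0.14, and IGFBP6 changed by -0.54 ± 0.13. Of 12 ERBB receptor and ligand genes 2 rose and none fell (2 and 0 without scramble array 3, 2 and 0 with median centring). ERRFI1, a feedback inhibitor of EGFR, gave 4616, 4979 and 5258 units on scramble arrays 1 to 3 and 9157, 8779.7 and 9515 on MCT1 shRNA arrays 1 to 3, without overlap, and rose by 0.89 ± 0.06 (limma adjusted p = 5.16e-10). Of 25 immediate early genes 6 rose and 3 fell (5 and 2 without scramble array 3, 3 and 2 with median centring), and 3 rose without MCT1 shRNA array 1. EGR1 and DUSP1, a MAP kinase phosphatase, rose by 0.75 ± 0.13 and 0.62 ± 0.09, while FOSL1, the AP-1 subunit FRA1, gave 3364, 3100.4 and 4770.2 units with scramble and 2134, 2137 and 2098 with MCT1 shRNA and changed by -0.79 ± 0.10.

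Of 36 TGF-beta, BMP and activin genes 4 rose and 8 fell (4 and 5 without scramble array 3, 2 and 9 with median centring), with 4 and 5 also without MCT1 shRNA array 3. SMAD3, a transducer of TGF-beta and activin, gave 814, 749.7 and 958 units with scramble and 402, 428 and 492 with MCT1 shRNA and changed by -0.91 ± 0.11 (limma adjusted p = 4.80e-06), and LTBP2, a latent TGF-beta binding family member, by -0.72 ± 0.15. Rises were in INHBE and GDF15, above, and in BAMBI and ACVR1 (0.41 ± 0.09 and 0.34 ± 0.07). Of 30 Notch and Wnt genes none rose and 5 fell (0 and 5 without scramble array 3, 0 and 6 with median centring). LEF1, the nuclear effector of Wnt, gave 1087, 1196 and 972 units with scramble and 610.3, 548 and 609.8 with MCT1 shRNA and changed by -0.86 ± 0.10. The receptor genes FZD2 and FZD7 and the ligand gene WNT5A changed by -0.58 ± 0.08, -0.53 ± 0.09 and -0.53 ± 0.08. Each of these 4 Wnt genes was still called without scramble array 3 (limma adjusted p from 1.02e-06 in LEF1 to 0.000224 in FZD2).

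The inflammatory calls depended on single arrays. Of 28 measured NF-kappaB cytokine, chemokine and feedback genes none rose and 4 fell (0 and 1 without scramble array 3, 0 and 4 with median centring). The 1 without scramble array 3 was IL1B. Without MCT1 shRNA array 1 the count was also 1 (CXCL8). CXCL8, the neutrophil chemokine interleukin-8, gave 3808, 4014 and 7752 units on scramble arrays 1 to 3 and 2997, 2588 and 3152 on MCT1 shRNA arrays 1 to 3: scramble array 3 stood apart, and the change of -0.76 ± 0.19 became -0.43 without it (limma adjusted p = 0.00834 and 0.0582). CCL20 gave 2485, 2558 and 4626 units with scramble and 1756, 2299 and 2222 with MCT1 shRNA and changed by -0.28 without that array (limma adjusted p = 0.129). IL1B gave 642, 799.7 and 789 units with scramble and 426, 469.5 and 488 with MCT1 shRNA, a change of -0.67 ± 0.18 that was lost without MCT1 shRNA array 1 (0.058 in limma). Among 31 interferon and antigen presentation genes 4 rose and 4 fell (4 and 5 without scramble array 3, 1 and 4 with median centring), and 2 rose without MCT1 shRNA array 2. The peptide transporter subunits TAP1 and TAP2 and the immunoproteasome subunit PSMB9, which share 1 cluster in the MHC region, changed by -0.60 ± 0.12, -0.75 ± 0.08 and -0.53 ± 0.09. ISG15, a ubiquitin-like interferon product, gave 1364, 1267 and 1659 units with scramble and 879, 834 and 810.1 with MCT1 shRNA and changed by -0.75 ± 0.09. The class I heavy chain HLA-B rose by 0.44 ± 0.09, and class I genes are near-identical copies whose probes may cross-hybridise.

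Of 26 p53 and apoptosis genes 2 rose and 2 fell (5 and 2 without scramble array 3, 2 and 2 with median centring), the rises with all arrays being SESN2 and GDF15, which ATF4 also drives, and the falls FAS and SESN1 (-0.48 ± 0.10 and -0.73 ± 0.14). Of 29 lysosome and autophagy genes 7 rose and 2 fell (8 and 1 without scramble array 3, 2 and 2 with median centring), and 4 rose without MCT1 shRNA array 3. WIPI1, an early autophagosome protein, gave 259.6, 236 and 294 units with scramble and 541, 482 and 524 with MCT1 shRNA and rose by 0.93 ± 0.13, and the autophagy receptor SQSTM1 (p62) by 0.50 ± 0.07. Of 19 NRF2 and glutathione genes 4 rose and 1 fell (2 and 0 without scramble array 3, 2 and 2 with median centring). The 2 that rose without scramble array 3 were SLC7A11 and the drug exporter ABCC3, which gave 792, 902 and 1144 units with scramble and 2381, 2729 and 2183 with MCT1 shRNA. Of 22 YAP and TAZ targets 3 rose and 4 fell (2 and 3 without scramble array 3, 2 and 5 with median centring), with 2 falling without MCT1 shRNA array 2. Of 26 metalloproteinase and inhibitor genes 4 rose and 3 fell (3 and 3 without scramble array 3, 1 and 3 with median centring), with 2 rising without MCT1 shRNA array 2. None of 6 leukocyte and 4 endothelial marker genes that were bright enough to be tested passed. None of 16 stable reference genes passed (median 0.02), although GAPDH had a log2 fold change of 0.52 ± 0.20, with 24005, 24198 and 9753 units with scramble and 23558, 25859.8 and 27485 with MCT1 shRNA.

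**Figure D5:**
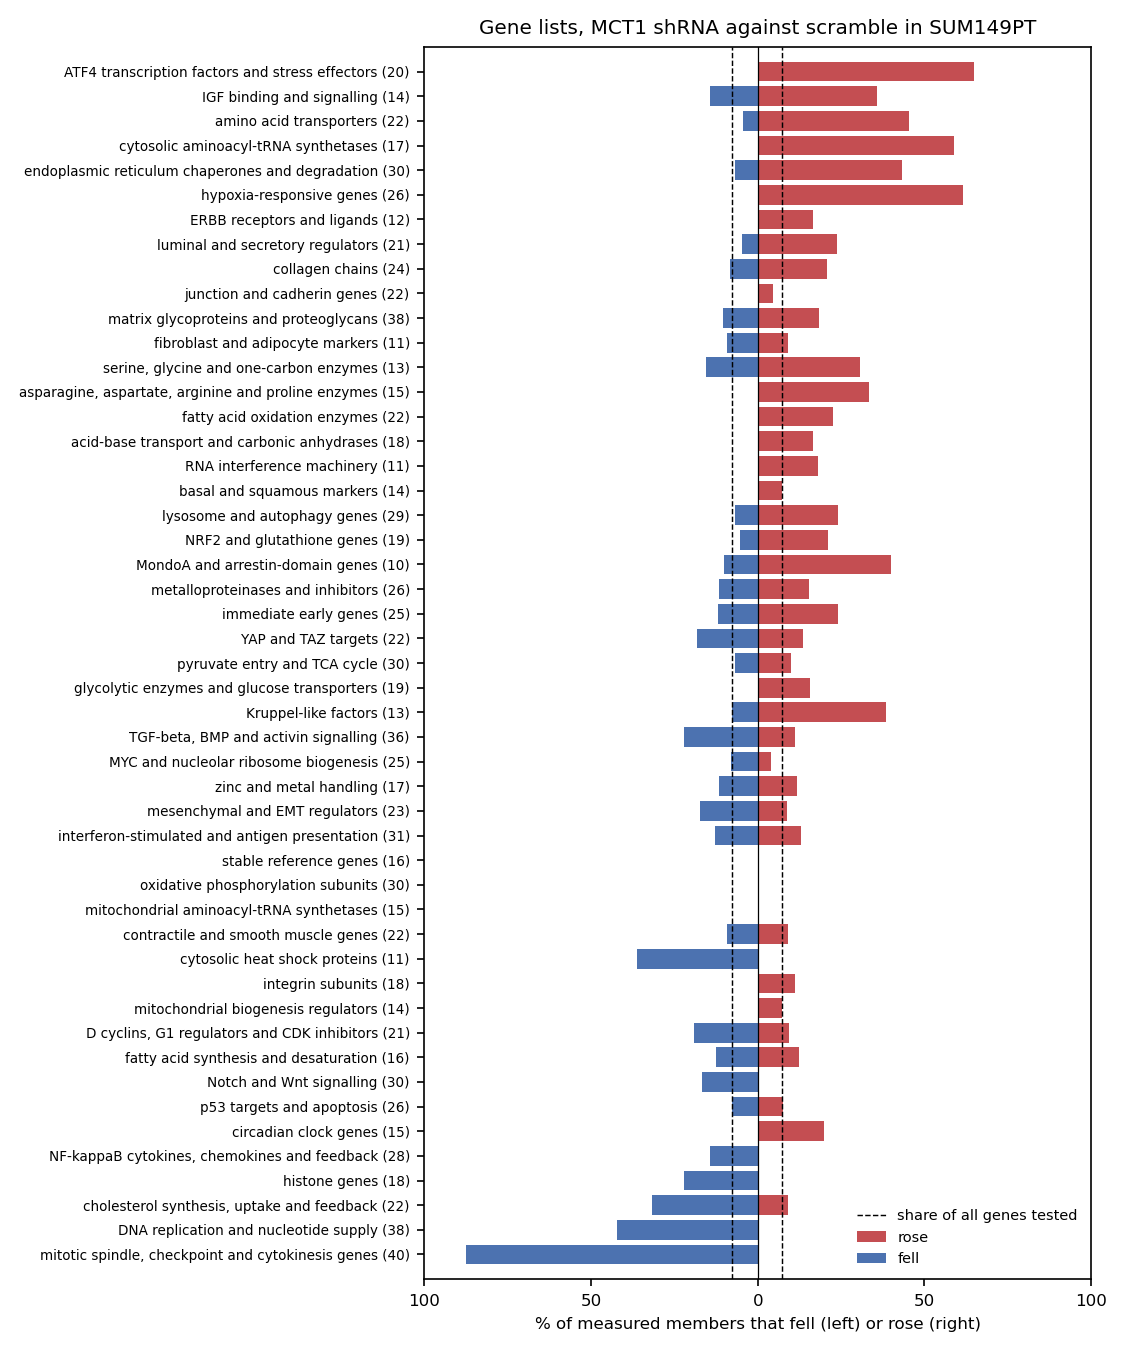
Share of the measured members (number in brackets) of each gene list with at least 10 measured members that rose (red, right) or fell (blue, left) with MCT1 shRNA, ordered by median log2 fold change, with dashed lines at the 7.22% and 7.64% of all genes tested. Mitotic genes reach 87.5% lower and ATF4 stress genes 65% higher, while the reference, oxidative phosphorylation and mitochondrial synthetase lists have no bar.

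Inhibition of the same transporter by AZD3965 for 24 hours in SUM149PT gave 4 called genes of 14141 (0.0283%): CCDC127, CYB561D1 and DANCR higher and GRIK2 lower. None of the 4 was called with MCT1 shRNA. At an unadjusted p under 0.05 limma gave 2330 genes for the inhibitor, and leaving out its array 1 raised the called count to 648, of which 97 were called with MCT1 shRNA, 62 in the same direction and 35 in the opposite one. These 97 are 4.62% of the shRNA's 2101, where the inhibitor's 648 are 4.58% of all genes, so the overlap is near the share over all genes. With array weights the count was 188. The difference between the experiments (shRNA effect minus inhibitor effect, which share no control array) was called for 1346 genes (9.52%), 648 higher and 698 lower. Of the 2101 genes called with MCT1 shRNA 1011 (48.1%) were among them, and of the 161 changed at least 2-fold 112. The difference contains the shRNA effect by which these genes were selected, so a high share among them is built in. The experiments differ in agent, duration, virus and selection, which cannot be told apart here.

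None of the genes in the plot of largest rises and falls was called with AZD3965. AGR2 changed by 0.05 ± 0.16 with the inhibitor, and the difference between the effects was 3.66 ± 0.23 (limma adjusted p = 4.07e-10). For KLF4 the inhibitor gave -0.13 ± 0.10 (difference 2.54 ± 0.15), for SLC3A2 -0.02 ± 0.08 (difference 1.61 ± 0.11), for ASNS -0.08 ± 0.07 (difference 1.33 ± 0.11) and for DNAJB9 -0.24 ± 0.07 (difference 1.81 ± 0.10). TAGLN and CBR3 changed by 0.12 ± 0.16 and 0.12 ± 0.10 with the inhibitor, with differences of -1.73 ± 0.23 and -1.44 ± 0.14. By list, the difference was called upward for 10 of 20 ATF4 genes, 7 of 22 amino acid transporters, 11 of 30 endoplasmic reticulum genes and 11 of 26 hypoxia genes, against 4.58% of all genes. It was called downward for 22 of 40 mitotic genes and 5 of 38 replication genes, against 4.94%. The inhibitor medians of these lists lay between -0.03 and 0.07. As the difference contains the shRNA effect, these counts are not separate support for it. Of the large falls NEGR1 was lower with both, by -0.50 ± 0.18 with AZD3965, and its difference did not pass (limma adjusted p = 0.0604). Among genes with a called difference, NKAPP1 and ARID5A had changes of opposite sign in the experiments, 1.14 ± 0.39 and -1.15 ± 0.38 with MCT1 shRNA and -1.35 ± 0.39 and 0.67 ± 0.38 with AZD3965, but neither was called for the shRNA without scramble array 3 (limma adjusted p = 0.186 and 0.141).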

How the data were processed

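Biotinylated cRNA from total RNA was hybridised to 24 Affymetrix arrays, per the labels' protocols. The authors deposited 1 intensity per probe set on a linear scale, made with MAS5 per the submitters' processing notes, whose trimmed mean without 2% at each end was about 500.1 on every array, and no further normalization was applied. Of 54675 probe sets 41097 had 1 gene symbol in the platform annotation, 1801 several and 11777 none. For 41043 the symbol was looked up by gene ID in RefSeq. For each of 19775 genes the probe set of highest mean was kept and log2 of the value plus 16 was analysed. Genes at or above the 40th percentile (5.58) were tested. One model of 8 group means over 24 arrays was fitted with limma 3.58.1 in R 4.3.3 (16 residual and 6.52 prior degrees of freedom, mean-variance trend), two-sided, with Benjamini-Hochberg adjusted p under 0.05. The step was tested on simulated data.

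Genes, gene lists (53, of which 1079 of 1268 entries were measured) and tests were chosen with earlier results of these data known. Named were the 16 largest rises and falls among called genes without overlap and with a group mean of at least 200 units, up to 5 called members per list by size, and the largest differences from AZD3965. Other members are named to account for a count, and were chosen after their values were seen. Signals are compared between arrays and not between probe sets. Alternatives were other normalizations, offsets of 1 and 64, other filters and probe set rules, array weights, only the arrays compared, and each array left out. Within the shRNA experiment samples with the same number deviated from their group means with correlations of 0.037, -0.123 and -0.058. Those with other numbers gave -0.091 to 0.132. No pairing by number was seen, though 3 correlations cannot exclude one.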

Additional observations from a re-analysis of the deposited data

How the results depend on the processing

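Of 199 named genes, 193 kept their direction under every alternative, but only 92 kept both direction and call in all of them: 74 lost the call with only the arrays compared, 47 with the mean of probe sets, 43 without scramble array 3 and 37 with median centring. The count of called genes stayed within 1.5 times of 2101 in all settings except one: 864 when only the 6 shRNA arrays were fitted. It ran from 1547 to 2303 when single arrays were left out, was 1691 with the replicate block, and was 1617 in a fit chosen after seeing the data, of the 6 arrays without scramble array 3. Centring on each array's median over all probe sets moved the median change of the genes tested to -0.116 and the share of higher calls from 48.6% to 23.1%, whereas centring on the median of the genes tested (added after seeing the data) left it at 48.1%. Under the former 10 of 20 ATF4 genes, 6 of 22 amino acid transporters, 6 of 17 cytosolic synthetases, 6 of 30 endoplasmic reticulum genes and 5 of 26 hypoxia genes rose, and 35 of 40 mitotic genes fell. Averaging all probe sets of a gene reversed BMS1P20 (0.17), STIP1 (0.57), SUCLG2 (0.0067), HEXA (-0.016), AGRN (-0.035) and AGO1 (-0.17). For AZD3965 in SUM149PT the count of 4 was 2 with the mean of probe sets, 0 with only the arrays compared, 188 with array weights and 2 to 648 with single arrays left out. For the difference between the experiments the count of 1346 was 521 with median centring, 831 with the mean of probe sets, 795 with only the arrays compared, and 874 to 1774 with single arrays left out. With the replicate block it was 950. The causes were not tested. With 3 arrays a group, signals near the offset limit the dim genes.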

Other observations

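In brackets stand the members that rose and fell without scramble array 3 and with median centring, and 7.22% of all genes rose and 7.64% fell. Of 17 zinc and metal handling genes 2 rose and 2 fell (1 and 2 without scramble array 3, 0 and 2 with median centring), and the falls were in metallothioneins, which bind zinc and copper: MT1F gave 9565, 9288 and 12532 units with scramble and 6347, 7025 and 7343 with MCT1 shRNA and MT1H 14879.5, 13066 and 17549 units with scramble and 9261, 10309 and 9743 with MCT1 shRNA, changes of -0.59 ± 0.09 and -0.62 ± 0.12. Of 15 circadian clock genes 3 rose and none fell (2 and 1 without scramble array 3, 1 and 1 with median centring), among them the repressors BHLHE41 (0.60 ± 0.14) and NFIL3 (0.34 ± 0.08). Of 18 acid-base transport genes 3 rose and none fell (0 and 0 without scramble array 3, 0 and 0 with median centring). Among 11 genes of the RNA interference machinery, which both hairpins use, DICER1 and AGO1 rose, by 0.50 ± 0.16 and 0.23 ± 0.08 (1 and 0 without scramble array 3, 0 and 0 with median centring). With the mean of its probe sets AGO1 turned to -0.17, and it was not called without scramble array 3 (limma adjusted p = 0.203). DICER1 was lost without scramble array 1 (0.13) or 2 (0.0642) or MCT1 shRNA array 1 (0.189) or 2 (0.068).

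The scramble cells and the DMSO cells of the same line differed widely, at 683 genes by at least 2-fold, 429 of them lower with scramble and 254 higher; experiment and group cannot be told apart here. EHF, which fell with MCT1 shRNA, averaged 5694 units with DMSO, 555 with scramble and 227 with MCT1 shRNA. CXCL8 averaged 23552, 5191 and 2912 units, IL1B 9553, 744 and 461, and CCL20 18842, 3223 and 2092, so the scramble cells were already far below the DMSO cells. MGP averaged 168 units with DMSO, 1710 with scramble and 9200 with MCT1 shRNA. Of the 161 genes changed at least 2-fold the DMSO mean lay nearer to scramble than to MCT1 shRNA in 116. Over all 2101 called genes it lay nearer to scramble in 1231. The share over all genes tested was not computed, so these counts show nothing particular to the called genes.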
